A study of Mus musculus with 7 samples.

Results

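Transcripts of 10 neutrophil granule and cytosol proteins were followed on 7 arrays of sorted mouse bone marrow cells. The genes are Elane, Mpo, Prtn3, Ctsg, S100a8, S100a9, Ltf, Camp, Ngp and Lcn2. They were taken by name, as every probe set annotated with one of these symbols and no other, which gave 10 probe sets, 1 per gene, of 45101 on the array. The cells came from wild-type C57Bl/6J mice of 6 to 12 weeks, described as young adults, and 1800 to 10000 cells were sorted per sample. Both sorts excluded cells bearing lineage antigens or CD45, the product of Ptprc found on nearly all leukocytes. The population labelled stromal was CD54 positive, BP1 positive and CD31 negative and has 4 arrays. The population labelled endothelial was CD54 negative and CD31 positive and has 3 arrays. The labels name no treatment and no transgene. The labels leave unsaid whether replicates are separate animals, so p-values reflect only how far these samples spread, which may be technical.

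Neutrophils fill their granules in sequence as they mature in the marrow. Azurophil granules form first, in promyelocytes, and hold myeloperoxidase (Mpo) and the serine proteases neutrophil elastase (Elane), proteinase 3 (Prtn3) and cathepsin G (Ctsg). Specific granules form later, in myelocytes and metamyelocytes, and hold lactoferrin (Ltf), the cathelicidin antimicrobial peptide (Camp), neutrophilic granule protein (Ngp) and lipocalin 2 (Lcn2). S100a8 and S100a9 encode the subunits of calprotectin, a calcium-binding complex that fills the cytosol of later neutrophils. Stromal and endothelial cells are not known as sources of most of these proteins, although Lcn2, S100a8 and S100a9 can be induced in other cell types. The question here is how much of this signal each CD45-negative sort carried and how evenly.

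Values are deposited log2 expression values, so a step of 1 is a doubling of signal. The arrays' 40th percentiles, used here as the limit for dim genes, lay between 5.48 and 5.79. Array medians lay between 6.00 and 6.19. Spiked-in hybridisation controls (18 probe sets) averaged 9.51 to 9.75 on 5 arrays, but 11.33 on endothelial 2 and 11.37 on endothelial 3. The sorted antigens Icam1 (CD54) and Enpep (BP1) were higher on the stromal arrays, at 10.31 to 11.02 and 11.85 to 12.28, beside 4.77 to 5.74 and 4.32 to 5.81 on the endothelial arrays. Pecam1 (CD31) was higher on the endothelial arrays, at 7.68 to 8.86 beside 4.64 to 5.12. The stromal arrays were higher in all 11 reticular stromal markers tested. On the arrays labelled endothelial, the defining endothelial genes Cdh5 and Emcn lay at 5.19 to 5.67 and 4.11 to 4.19, below the limit for dim genes, while all 10 megakaryocyte and platelet markers tested were higher there, for example Ppbp at 14.13 to 14.35. Of 8 endothelial markers tested, 3 were higher on these arrays and 5 were not called, with a median difference of -0.59. The 3 were Esam at 11.74 to 12.54, Plvap at 8.44 to 9.41 and Kdr at 7.85 to 9.63, each above every stromal array. Precision is limited by how few arrays there are.

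The azurophil granule genes lay above the 40th percentile on every array of both sorts and were higher on the endothelial arrays. Elane, the gene of neutrophil elastase, measured 8.32, 7.49, 6.70 and 6.36 on stromal 1 to 4, and the endothelial arrays 1 to 3 gave 9.09, 9.68 and 7.56. Mpo, the gene of the enzyme that makes hypochlorous acid, lay at 10.76, 9.18, 8.38 and 7.83 on the stromal arrays and at 11.78, 12.70 and 9.84 on the endothelial arrays. In both genes stromal 1 stood above endothelial 3, so the populations overlapped, and endothelial 1 and 2 were the highest arrays. Prtn3 measured 11.25, 10.20, 9.67 and 9.24 on stromal 1 to 4, and the endothelial arrays 1 to 3 gave 12.00, 13.04 and 11.76. Ctsg lay at 9.50, 8.52, 7.76 and 7.85 on the stromal arrays and at 11.49, 12.70 and 9.96 on the endothelial arrays. For these 2 proteases every endothelial array lay above every stromal array, as in 32.7% of all genes tested, although the gap was 0.51 for Prtn3 and 0.46 for Ctsg. The arrays carry RNA from many cells at once, so a smaller share of neutrophil precursors and less granule RNA per cell cannot be told apart.

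All 4 azurophil genes passed the test between the populations, where 16.1% of all genes tested were called higher on the endothelial arrays. The limma fit over all 13995 genes tested, with Benjamini-Hochberg adjustment, called a gene where the adjusted p was below 0.05 and the populations differed by 1 or more on the log2 scale. Ctsg was 7.87-fold higher on the endothelial arrays (log2 difference, stromal minus endothelial, -2.98, SE 0.66, adjusted p = 0.00471). Mpo was 5.28-fold higher (-2.40, SE 0.82, adjusted p = 0.0305) and Prtn3 4.53-fold higher (-2.18, SE 0.50, adjusted p = 0.00565). Elane was 2.95-fold higher (-1.56, SE 0.60), with an adjusted p of 0.0460, close to the threshold. Elane and Mpo no longer passed when stromal 2, 3 or 4 or endothelial 1 or 2 was left out, with adjusted p values up to 0.133 for Elane and 0.0907 for Mpo among those fits.

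The calprotectin genes separated the sorts most clearly by array, with 1.44 between the lowest endothelial and the highest stromal array for S100a9 and 0.74 for S100a8. S100a8 measured 10.99, 11.49, 8.76 and 8.92 on stromal 1 to 4, and the endothelial arrays 1 to 3 gave 13.01, 13.67 and 12.23. S100a9 lay at 10.22, 10.27, 7.59 and 7.25 on the stromal arrays and at 12.38, 13.06 and 11.71 on the endothelial arrays. No endothelial array overlapped a stromal one, and every endothelial array lay above every stromal array in 32.7% of all genes tested. The stromal arrays split into a higher pair, stromal 1 and 2, and a lower pair, stromal 3 and 4. S100a9 was 11.7-fold higher on the endothelial arrays (-3.55, SE 0.82, limma adjusted p = 0.00564) and S100a8 7.62-fold higher (-2.93, SE 0.72, adjusted p = 0.00764). Both kept passing when any single array was left out, with differences from -4.03 to -3.02 for S100a9 and from -3.41 to -2.50 for S100a8.

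The specific granule genes did not pass the test, and their arrays differed widely within each sort. Ngp, the gene of a cathelicidin-related granule protein, measured 10.07, 11.67, 7.76 and 10.44 on stromal 1 to 4, and the endothelial arrays 1 to 3 gave 12.94, 13.17 and 7.64. Camp, the gene of the antimicrobial cathelicidin, lay at 11.63, 11.88, 7.66 and 10.35 on the stromal arrays and at 12.90, 13.26 and 8.72 on the endothelial arrays. Endothelial 1 and 2 were above every stromal array, while endothelial 3 lay below stromal 1, 2 and 4 in Camp and below all 4 stromal arrays in Ngp. Ltf, the gene of the iron-binding protein lactoferrin, lay at 8.05, 9.27, 6.34 and 8.33 on the stromal arrays and at 11.15, 11.70 and 6.45 on the endothelial arrays. Lcn2, the gene of a siderophore-binding lipocalin, lay at 8.06, 9.07, 5.28 and 7.78 on the stromal arrays and at 10.90, 11.40 and 6.55 on the endothelial arrays. Ltf and Lcn2 on endothelial 3 also lay below stromal 1, 2 and 4, and Lcn2 on stromal 3 was the only value of the 10 genes below its array's 40th percentile.

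The spread inside the endothelial sort was larger for the specific granule genes than the difference between the sorts. Ngp was 39.3-fold higher on endothelial 1 than on endothelial 3, Ltf 26.0-fold, Lcn2 20.4-fold and Camp 18.2-fold. The same ratio was 2.90 for Elane, 3.84 for Mpo, 2.89 for Ctsg, 1.18 for Prtn3, 1.71 for S100a8 and 1.59 for S100a9. In the limma fit the differences were -2.07 for Lcn2 (SE 1.27, adjusted p = 0.173), -1.77 for Ltf (SE 1.24, adjusted p = 0.228), -1.26 for Ngp (SE 1.41, adjusted p = 0.441) and -1.25 for Camp (SE 1.32, adjusted p = 0.416). None of these 4 genes had an unadjusted p under 0.05 (0 of 4), and the fit with trended, robust variance also called 0. Without endothelial 3, Lcn2 (-3.60, adjusted p = 0.0104), Ltf (-3.43, adjusted p = 0.00428) and Ngp (-3.07, adjusted p = 0.0204) passed, and Camp stood at -2.70 with an adjusted p of 0.0579. Whether the specific granule genes differ between the sorts to another degree than the azurophil genes was not tested.

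**Figure D1:**
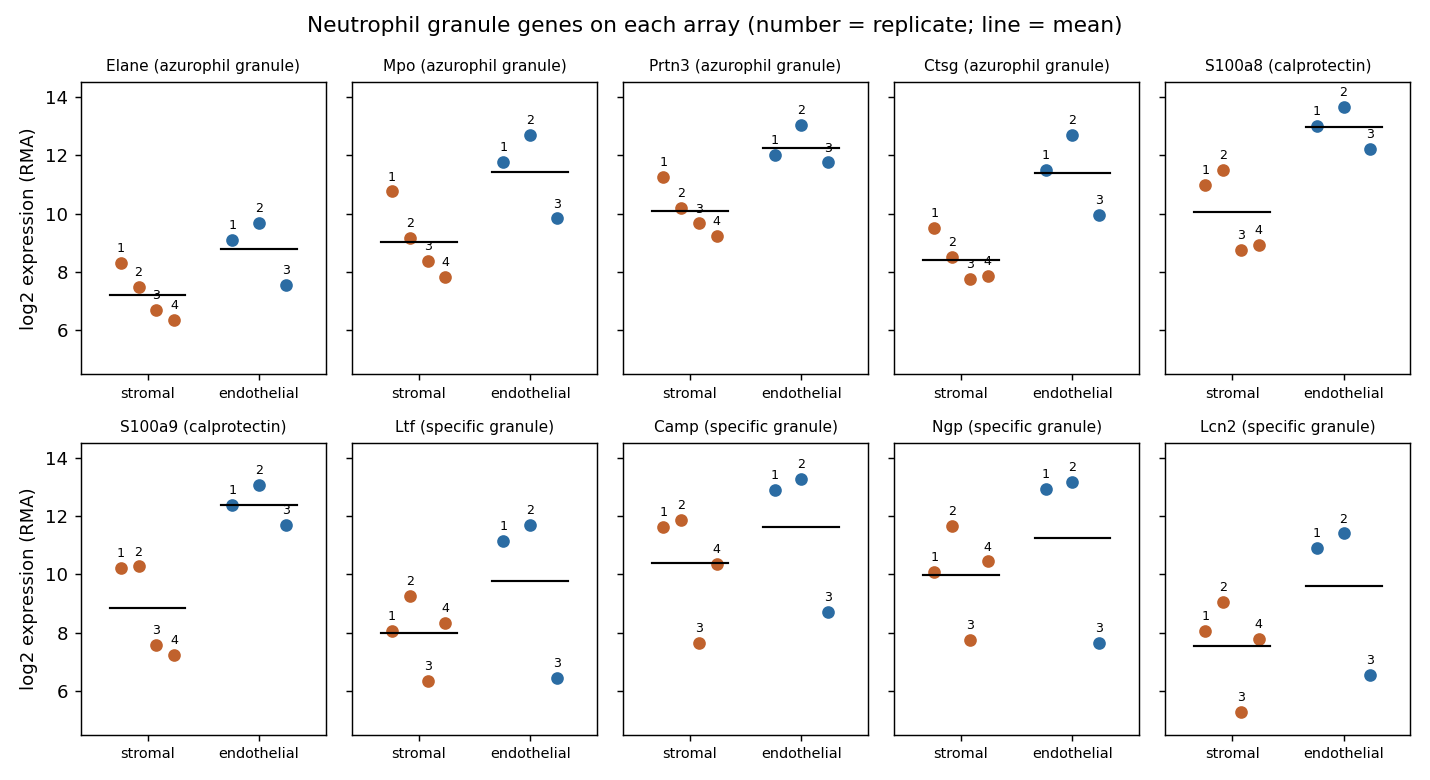
Deposited log2 expression of the 10 granule and calprotectin genes (1 panel each, vertical axis in log2 units) on the 4 stromal (orange) and 3 endothelial (blue) arrays, with the replicate number above each point and the population mean as a line. Endothelial 3 lies far below endothelial 1 and 2 in Ltf, Camp, Ngp and Lcn2 but stays above every stromal array in Prtn3, Ctsg, S100a8 and S100a9.

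In all, 6 of the 10 genes were called higher on the endothelial arrays and 0 on the stromal arrays, where 16.1% of all genes tested were called higher on the endothelial arrays and 30.9% on the stromal arrays. Every endothelial array lay above every stromal array in 4 of the 10 genes, against 32.7% of all genes tested. Of all genes tested, 47.0% were called in either direction, and 31.5% passed on the adjusted p alone toward the endothelial arrays, as did the same count of 6 members. The endothelial share of all calls was 34.3%, and 48.5% after a second quantile normalization, which moved the median of all genes to -0.13, while the members' direction did not change. The background of 16.1% was 14.9% with no filter, 17.1% after cyclic loess, 21.5% after the second quantile normalization and 13.6% to 16.6% with single arrays left out. The median difference of the 10 genes was -2.13 beside 0.19 over all genes tested. All 10 passed the filter on dim genes. When endothelial 3 was left out, 9 of the 10 genes were called, against 13.6% of all genes. When the arrays numbered 3 in both populations were left out, all 10 were called, again against 13.6%. That step was chosen after seeing the data and drops arrays low in the specific granule genes, so its count is no separate support. With the level of the hybridisation controls as a block, which leaves endothelial 1 alone to stand for its population, only Ctsg was called (-3.08, adjusted p = 0.0434), against 2236 of all 13995 genes, while the differences of the 10 genes kept their sign. Within the 5 arrays of like control level, 8 of 10 were called, all but Camp and Ngp, against 14.9% of all genes. There endothelial 1 is the only array of its population and is assumed to vary like the stromal arrays, which alone give the spread.

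**Figure D2:**
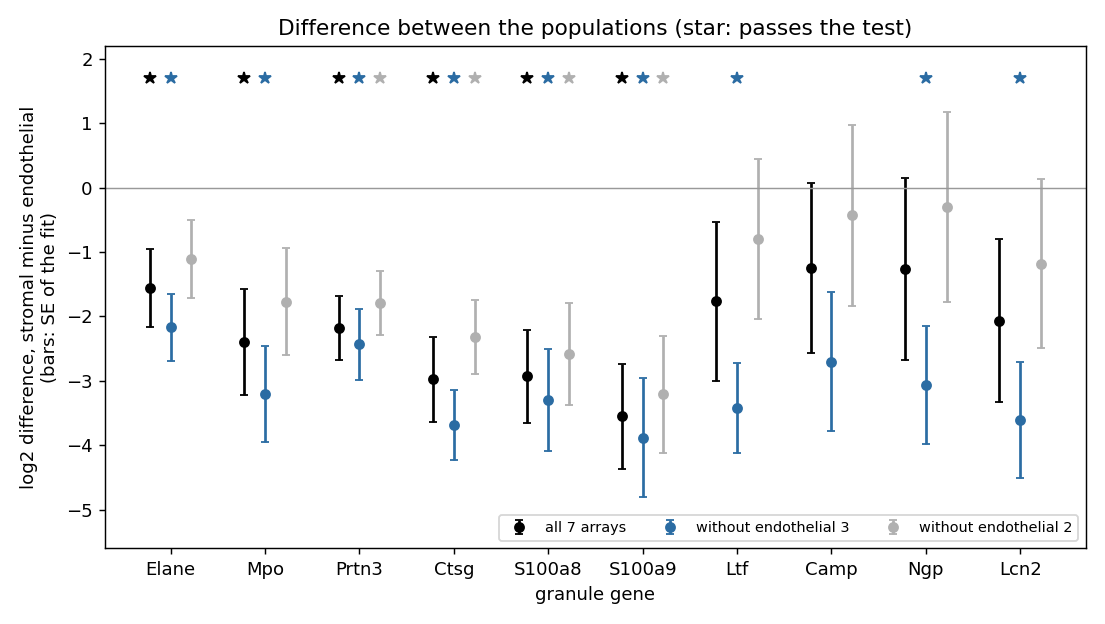
Log2 difference, stromal minus endothelial, of each gene from the limma fit with its standard error as a bar, for all 7 arrays (black), without endothelial 3 (blue) and without endothelial 2 (grey), with a star where the gene passed the test. All points lie below 0, and the specific granule genes Ltf, Ngp and Lcn2 pass only in the fit without endothelial 3 of the 3 fits drawn.

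The spread between replicates was large for these genes beside that of the array as a whole. The median standard deviation of the 10 genes was 1.34 among the stromal and 1.42 among the endothelial arrays, beside medians of 0.21 and 0.39 over all genes tested. Signal of the highest stromal array exceeded that of the lowest by 18.7-fold for Camp and 8.11-fold for S100a9, and by 3.34-fold for Ctsg and 3.89-fold for Elane.

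Levels of genes of the same group moved closely together over the arrays. Over the 7 arrays, Elane and Mpo had a Pearson r of 0.996 and a Spearman rho of 1 (exact two-sided permutation p = 1.98e-04, the smallest that 5040 orders of the arrays can give, adjusted p = 0.00510 over the 45 pairs). Among the 6 pairs of azurophil genes r was at least 0.93, and S100a8 and S100a9 had an r of 0.99. Among the 6 pairs of specific granule genes r ran from 0.93 for Ltf and Camp to 0.99 for Ltf and Lcn2. The 8 pairs of an azurophil with a calprotectin gene had r from 0.89 to 0.95. All of these 21 pairs passed the adjustment over the 45 pairs in the exact permutation test of r, and 19 did so by rho.

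Over all arrays, pairs that crossed from the specific granule genes to the others were looser. The 16 pairs of an azurophil with a specific granule gene had r from 0.46 for Prtn3 and Ngp to 0.82 for Elane and Lcn2, with rho from 0.46 to 0.75. The 8 pairs of a calprotectin with a specific granule gene had r from 0.53 to 0.77 and rho from 0.54 to 0.79. No such pair passed in the exact permutation test (0 of 16 and 0 of 8, smallest adjusted p 0.0503), and 5 of the 16 and 1 of the 8 had an unadjusted p under 0.05. Without the 2 arrays farthest from the median of the first gene of each pair, r ran from 0.81 to 0.98 within the azurophil genes, from 0.87 to 0.998 within the specific granule genes and from -0.21 to 0.77 between these groups. Over all arrays, the median r was 0.71 for azurophil and 0.66 for calprotectin with specific granule genes. Without endothelial 3 these medians were 0.81 and 0.90, beside 0.99 within azurophil and 0.97 within specific granule genes, and 32 of 45 pairs passed. With any other single array left out they ran from 0.55 to 0.80 and from 0.48 to 0.73. The looseness of the calprotectin pairs thus depended in large part on endothelial 3. The difference between looser and tighter pairs was not itself tested.

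The 2 populations contribute to these values, so r was also computed on deviations from each population's mean. It then ran from 0.88 to 0.99 within the azurophil genes and from 0.94 to 0.99 within the specific granule genes, and S100a8 and S100a9 had an r of 0.98. Between groups it ran from 0.73 to 0.84 (median 0.79) for azurophil with calprotectin genes, from 0.40 to 0.83 (median 0.71) for azurophil with specific granule genes and from 0.51 to 0.79 (median 0.63) for calprotectin with specific granule genes. The closeness of azurophil and calprotectin genes over all arrays was thus lower once the populations' means were removed. With arrays reordered only inside their population, 144 orders exist and the smallest possible p is 0.00694. None of the 45 pairs passed the adjustment (0, smallest adjusted p 0.0568), and 21 had an unadjusted exact permutation p under 0.05. A sort of 4 or 3 arrays is too small for a correlation of its own. The arrays of a pair of genes share their RNA, amplification and normalization.

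**Figure D3:**
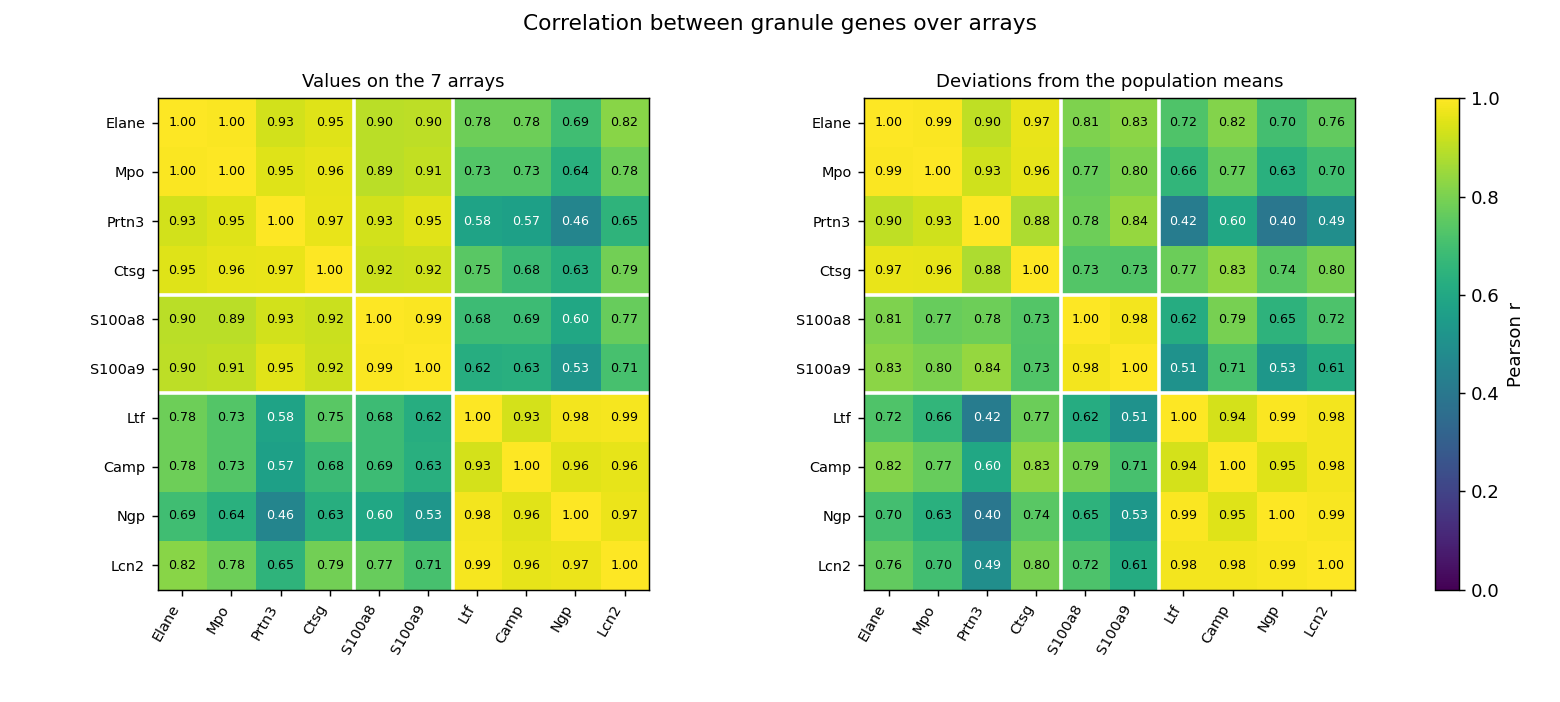
Pearson r between the 10 genes over the 7 arrays (left) and on deviations from the population means (right), with white lines between azurophil, calprotectin and specific granule genes. The 4 specific granule genes form a block of r of at least 0.93 in both panels, with lower values against Prtn3 and S100a9.

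Averaged by role, and with each gene set relative to its own mean over the arrays, the 3 groups lay farthest apart on endothelial 3 and stromal 4. Without that centring, the mean of the 4 specific granule genes measured 11.97, 12.38 and 7.34 on endothelial 1 to 3, and the stromal arrays 1 to 4 gave 9.45, 10.47, 6.76 and 9.22. The azurophil mean was 11.09, 12.03 and 9.78 on the endothelial arrays and 9.96, 8.84, 8.13 and 7.82 on the stromal arrays. The calprotectin mean was 12.70, 13.36 and 11.97 on the endothelial arrays and 10.61, 10.88, 8.17 and 8.09 on the stromal arrays. Stromal 4 was thus low in azurophil and calprotectin genes and mid-range in specific granule genes, and stromal 3 was low in all 3 groups. The arrays numbered 3 were the lowest or next to lowest of their sort in each group, and the labels do not say that a shared number marks a shared mouse or day. The 3' minus 5' difference of the Gapdh control, a measure of RNA quality, was 3.17 on stromal 3 and 2.37 on endothelial 3 and lay between 2.37 and 3.51 on all arrays, and its part in these patterns was not tested.

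**Figure D4:**
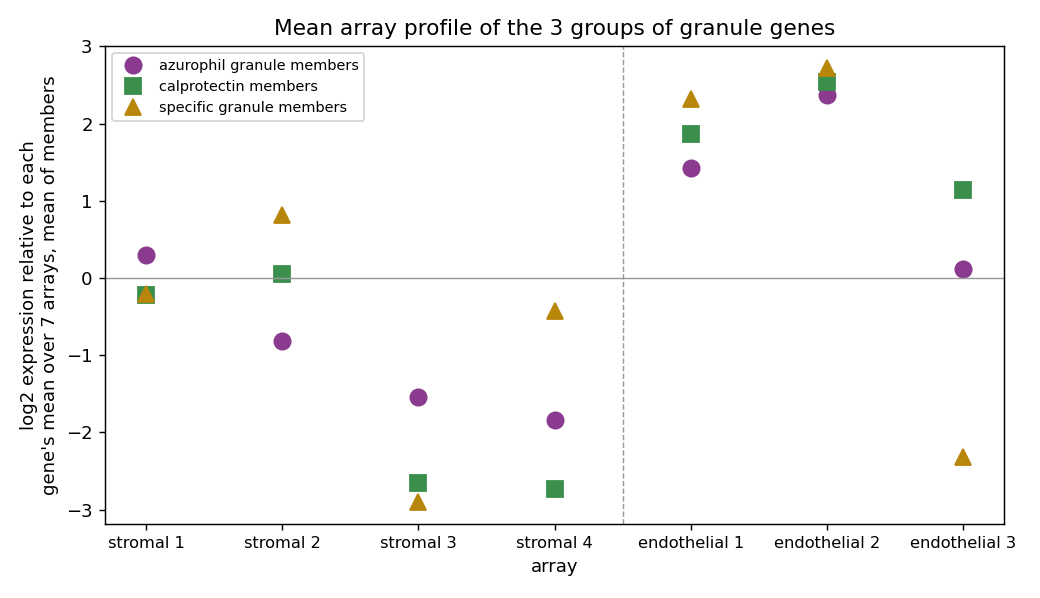
Mean log2 expression of the azurophil (circles), calprotectin (squares) and specific granule genes (triangles) on each array, each gene first set relative to its own mean over the 7 arrays. On endothelial 3 the triangle lies far below the circle and the square, while on endothelial 2 the 3 symbols nearly coincide.

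The promoters of the 10 genes are shown for a pair of azurophil and a pair of specific granule genes, because r was high within each of these groups and lower between them. All 10 genes matched RefSeq promoters of build GRCm38.p6, and the 250 bases before each start were searched on both strands. Prtn3 and Elane are neighbours on chromosome 10 with no protein-coding gene between them, as are S100a8 and S100a9 on chromosome 3, while Ltf, Ngp and Camp lie farther apart on chromosome 9. Capitals mark matches to GAGGAA, a core of the motif of PU.1, the myeloid factor encoded by Spi1, or to TTGCNNAA, a form of the motif of the C/EBP factors of granulocytes, in either orientation, and no matches of one motif overlapped the other in the sequences shown.
Elane (chr10:79886062-79886311, forward strand): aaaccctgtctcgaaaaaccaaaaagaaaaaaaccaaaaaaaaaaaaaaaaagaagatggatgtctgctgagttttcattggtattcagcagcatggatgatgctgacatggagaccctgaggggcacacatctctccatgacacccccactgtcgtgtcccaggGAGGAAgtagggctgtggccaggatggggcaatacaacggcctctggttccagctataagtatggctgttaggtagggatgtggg
Prtn3 (chr10:79879417-79879666, forward strand): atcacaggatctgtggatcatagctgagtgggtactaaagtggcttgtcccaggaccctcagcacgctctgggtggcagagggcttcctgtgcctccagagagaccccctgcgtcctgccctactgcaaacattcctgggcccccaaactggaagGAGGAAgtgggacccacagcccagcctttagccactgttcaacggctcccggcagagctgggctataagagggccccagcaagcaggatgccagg
Ltf (chr9:111019042-111019291, forward strand): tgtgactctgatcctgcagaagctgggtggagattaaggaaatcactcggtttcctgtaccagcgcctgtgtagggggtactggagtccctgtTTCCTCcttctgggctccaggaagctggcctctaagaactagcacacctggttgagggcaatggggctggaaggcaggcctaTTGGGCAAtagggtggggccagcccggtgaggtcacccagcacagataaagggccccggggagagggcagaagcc
Ngp (chr9:110419558-110419807, forward strand): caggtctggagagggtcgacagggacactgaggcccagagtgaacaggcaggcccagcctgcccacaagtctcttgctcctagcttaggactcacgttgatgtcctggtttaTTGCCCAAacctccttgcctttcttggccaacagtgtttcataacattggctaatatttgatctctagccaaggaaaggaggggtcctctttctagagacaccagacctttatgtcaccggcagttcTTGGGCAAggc

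The letters GAGGAA or their reverse complement were found in 7 of the 10 windows, beside 23.3% of 32851 promoter windows of the same length. They were present in all 4 azurophil genes, in S100a8, in Ltf and in Lcn2. The letters TTGCNNAA were found in 4 of the 10, in S100a9, Ltf, Ngp and Lcn2, beside 9.56% of all windows. A match is a description of letters and not of a bound site. Elane and Prtn3 each held 1 GAGGAA match, Ltf held 1 of each motif, and Ngp held 2 TTGCNNAA matches.

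Other granule genes showed both patterns. Of 11 tested from a further list of granule genes, the endothelial arrays were higher in 5, the stromal arrays in 2 and neither in 4, with a median difference of -1.49. Lyz2, the gene of myeloid lysozyme, measured 13.53, 13.34 and 13.41 on endothelial 1 to 3, and the stromal arrays 1 to 4 gave 10.09, 9.95, 7.41 and 9.11 (-4.29, limma adjusted p = 4.49e-04). It was thus level over the endothelial arrays, unlike the specific granule genes, and its probe sets and those of its near-copy Lyz1 may share signal. Lyz1 lay at 14.32 to 14.36 on the endothelial arrays, close to their maxima of 14.68 to 14.74, so no size is given for its difference. Cd177, the gene of a neutrophil surface and granule antigen, lay at 7.55, 8.82 and 5.91 on endothelial 1 to 3, with stromal values of 4.90 to 6.05 (-1.89, adjusted p = 0.0246). Chil3, the gene of a chitinase-like protein of neutrophils and macrophages, was lowest on stromal 3, at 5.33 against 9.24 to 10.56 on the other stromal arrays, and did not pass (adjusted p = 0.0838). Hp, the gene of haptoglobin, was higher on the stromal arrays (adjusted p = 3.53e-05), at 14.65 to 14.78 beside 9.64 to 11.43 on the endothelial arrays. The stromal values lie close to those arrays' maxima of 14.75 to 14.82, so no size is given for the difference.

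Genes that process or hold granule proteases were mostly higher on the endothelial arrays, in 5 of 7 tested, beside 16.1% of all genes tested. The median difference of the 7 was -2.19 beside 0.19 over all genes. Srgn, the gene of the proteoglycan serglycin that packs granule contents, had a difference of -3.45 (adjusted p = 2.01e-06) and lay at 13.73 to 14.03 on the endothelial arrays. The inhibitor genes Slpi and Serpinb1a, which restrain neutrophil proteases, had differences of -4.32 and -3.64. The called genes of this list did not share the members' order of arrays. Srgn, Slpi (12.35, 11.79 and 12.46 on endothelial 1 to 3) and Lyst (10.39, 9.49 and 11.18) were lowest of their sort on endothelial 2, where each member was highest. Serpinb1a and Cst7 were highest on endothelial 2, like the members. Ctsc, whose product activates the granule serine proteases, measured 9.59, 11.75 and 8.19 on endothelial 1 to 3, while the stromal arrays spanned 11.37 to 11.77 (1.73, adjusted p = 0.0556, not called). Of 5 NADPH oxidase genes tested, 4 were higher on the endothelial arrays (median of the 5, -1.98), led by Ncf1 (-2.52, adjusted p = 0.00210) and Rac2 (-2.32, adjusted p = 0.00201).

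Transcription factors and receptors of granulocyte development divided between the sorts. Of 9 tested, the endothelial arrays were higher in 4 and the stromal arrays in 4, and the median difference was -0.07. Csf2rb, the shared chain of the receptors for GM-CSF, IL-3 and IL-5, had a difference of -2.45 (adjusted p = 0.00802). Its values on stromal 3 and 4, 4.94 and 5.37, lay below the limit for dim genes, so this size is uncertain. Spi1, the gene of PU.1, spanned 6.74 to 7.73 in the endothelial sort, with stromal values of 5.48 to 5.94. The C/EBP genes Cebpa and Cebpd were higher on the stromal arrays, by 2.83 and 3.17, and so was Runx1, by 3.85. Of 11 genes of mature neutrophils tested, 8 were higher on the endothelial arrays (median of the 11, -1.93). Among them were Clec4d (-5.95), a lectin receptor gene, Wfdc21 (-2.54) and Ifitm6 (-2.45). Clec4d was highest on endothelial 3, at 12.64 against 11.96 and 11.81 on endothelial 1 and 2, unlike the granule genes. Ifitm6 overlapped between the sorts, with 7.62 on endothelial 3 and 8.09 on stromal 2. Cxcr2, the chemokine receptor gene of mature neutrophils, spanned 6.10 to 6.80 in the endothelial sort, with stromal values of 4.49 to 4.73 (adjusted p = 1.34e-04). All of these stromal values lie below the limit for dim genes, so no size is given for the difference.

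Genes of other blood cells were often higher on the endothelial arrays, and moved with the granule genes only in part. Ptprc itself, which encodes the antigen used for exclusion, measured 9.36, 10.94 and 8.63 on endothelial 1 to 3, and the stromal arrays 1 to 4 gave 7.01, 7.42, 4.91 and 6.45 (-3.20, limma adjusted p = 0.00439), so stromal 3 and endothelial 3 were the lowest of their sorts here as well. Of 14 pan-leukocyte markers 13 were higher on the endothelial arrays. The list means lay between 11.14 and 11.60 there and between 6.14 and 7.77 on the stromal arrays. Plek and Fermt3, with the largest differences, were level over the endothelial arrays, at 13.67 to 13.85 and 13.76 to 14.15, unlike Ptprc. Which cells gave the signal of this list was not tested. Of 11 monocyte and macrophage markers tested, 7 were higher on the endothelial arrays and 1, Cd14, on the stromal arrays, with a median difference of -1.28. Csf1r, the receptor gene of the monocyte lineage, lay at 9.61, 11.18 and 8.01 on the endothelial arrays and at 8.11, 8.12, 6.52 and 6.88 on the stromal arrays. For the eosinophil, basophil and mast cell markers the count was 4 of 6 tested, for the T and NK cell markers 3 of 5, and for the B-lineage markers 6 of 8. Mcpt8, a basophil protease gene, had the largest difference of the first of these lists (-3.30, limma adjusted p = 0.0248). It measured 9.29, 12.00 and 6.72 on endothelial 1 to 3 and overlapped the stromal sort, with 7.16 on stromal 2. Median differences were -1.82 for the eosinophil, basophil and mast cell list, -1.59 for T and NK cells and -1.68 for the B lineage. The T and NK cell list mean was highest on endothelial 3, at 7.44 against 6.74 and 7.05 on endothelial 1 and 2, unlike the granule genes. The genes of that list differed among themselves. Cd3g, which did not pass the filter, gave 5.04, 5.80 and 8.62 on endothelial 1 to 3, and Cd3d, Ccl5 and Gzma were also highest on endothelial 3. Nkg7 (7.98, 9.38 and 7.93) and Klrd1 (7.10, 8.41 and 6.66) were lowest there, and Cd3e was highest on endothelial 1. The part of these other cells in the granule gene values was not tested.

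Lists of the megakaryocyte and erythroid lineages followed other array patterns. The megakaryocyte and platelet list had means of 13.41, 13.18 and 13.50 on endothelial 1 to 3, so the array low in specific granule genes was not low there. Several of its genes, such as Clec1b at 14.36 to 14.55 and Tubb1 at 14.34 to 14.42, lay close to those arrays' maxima of 14.68 to 14.74. A lower level on 1 array may not show in such genes. Gp1bb, farther from the maxima, measured 13.90, 13.50 and 13.96. The list's stromal mean was highest on stromal 4, at 8.13 against 5.69 to 6.34. The erythroid list had its highest mean on endothelial 1, at 8.10, with 6.37 and 6.58 on the remaining endothelial arrays and a stromal span of 5.46 to 6.68. Of 8 erythroid markers tested, 3 were higher on the endothelial arrays and 5 were not called, with a median difference of -0.84. The B-lineage list was highest on endothelial 2, at 9.42 against 7.11 and 7.44 on endothelial 1 and 3.

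**Figure D5:**
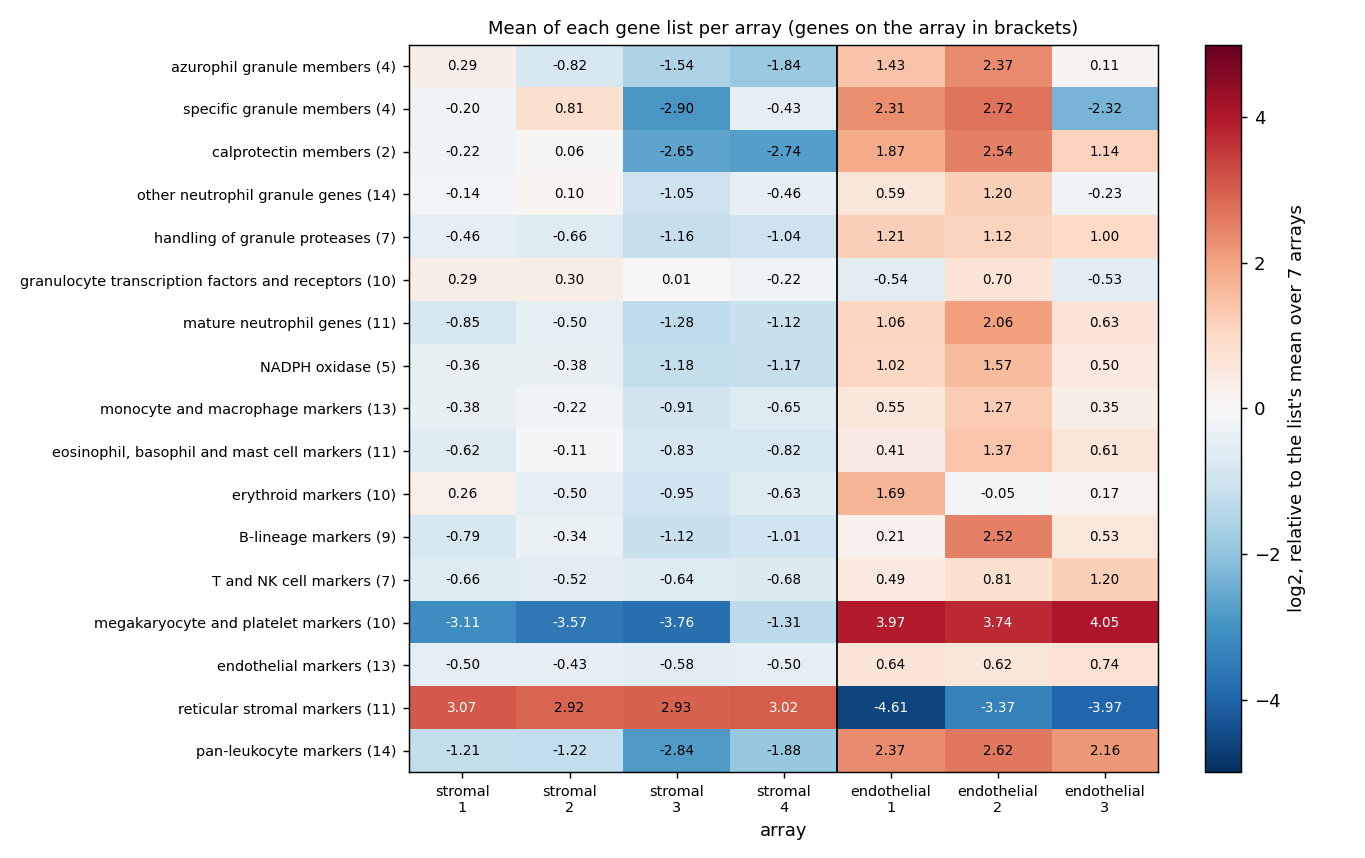
Mean log2 expression of each gene list per array, set relative to the list's own mean over the 7 arrays (red higher, blue lower), with the number of genes on the array in brackets. The specific granule row is blue on stromal 3 and endothelial 3, while the megakaryocyte row is red on all 3 endothelial arrays.

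Likeness to the mean pattern of the 10 genes was taken over all other genes. Among 5788 genes tested that spanned at least 2 log2 units, the 10 with the highest Pearson r over the 7 arrays were Cytip, Clec4a2, Csf1r, Cdkn3, Cd24a, Bub1b, Trem3, Spc24, E2f8 and Ms4a3, with r from 0.98 to 0.96. Cdkn3, Bub1b, Spc24 and E2f8 act in the cell cycle, Trem3 and Ms4a3 are genes of granulocytes or their precursors, and Clec4a2 is a lectin receptor gene of myeloid cells. Ms4a3 measured 9.05, 10.70 and 7.52 on endothelial 1 to 3, and the stromal arrays 1 to 4 gave 7.66, 7.48, 6.29 and 6.29. Of the 5788 genes, 60 had an r above 0.9.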

How the data were processed

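Sorted cell RNA was measured on 7 Affymetrix arrays. Per the submitters' processing notes, the authors deposited log2 values from RMA, run in Expression Console 1.1. RMA subtracts background, equalises the arrays' distributions and combines the probes of a set. Which arrays were processed together is not given in the sources used here. No detection calls were used, and arrays give no read depth.

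Symbols came from the platform annotation. Each of 18193 genes was represented by its brightest probe set, a choice that does not touch the 10 members, which have 1 each (that of S100a8 and that of Lcn2 carry the suffixes for several transcripts). Genes with at least 3 arrays above their own 40th percentile were fitted with limma 3.58.1 in R 4.3.3, stromal minus endothelial, without covariates, and adjusted over all 13995 genes. No columns were identical. The procedure was tested on simulated data. Correlations used exact permutations.

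Named genes were the members, the sort antigens, up to 4 called genes with the largest difference per list, and the 10 genes most like the members in pattern; Chil3, Cxcr2, Spi1, Ctsc, Cd14, Cdh5 and Emcn were added after their values were seen. List genes without a probe set of their own symbol are not analysed here. Members and lists were chosen with earlier results of these data known. Alternatives were other filters, probe set rules, normalizations, variance settings, blocks and arrays left out.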

Additional observations from a re-analysis of the deposited data

How the results depend on the processing

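The count of 6 of 10 genes called was the same with no filter, a 60th percentile filter, the mean of probe sets, a second quantile normalization, cyclic loess, trended robust variance and adjusted p alone. It was 5 of 8 without suffixed probe sets. It was 1 with the hybridisation control block and 10 with both arrays numbered 3 left out, an alternative chosen after seeing the data. Leaving out single arrays gave 4 to 9. Same-numbered arrays of the populations had correlations of their deviations of -0.0021, 0.035 and 0.117, of which 1 exceeded the 0.1 asked of every pair, so the numbers were not used as pairs. Whether they mark a shared mouse or day is not given in the labels. With the replicate block the count was 9, all but Ngp, against 16.3% of all genes, and Ltf (adjusted p = 0.0395), Camp (0.00888) and Lcn2 (0.00599) were called in that limma fit. Stromal 4 has no endothelial array of its number and so adds nothing to the differences of that fit. They equal those without stromal 4, for example -1.27 for Elane and -3.02 for S100a9. No difference of the 10 genes reversed in any alternative. The median difference over all genes moved from 0.19 to -0.13 after the second quantile normalization and to -0.02 after cyclic loess. The share of calls toward the endothelial arrays was 34.3% as deposited and 48.5% after the second quantile normalization. The count of correlated pairs was 21 of 45, 13 of 28 without suffixed probe sets, 0 on deviations from the population means and 15 to 32 with single arrays left out, 32 without endothelial 3. The causes of these shifts were not tested, beyond the fewer genes or orders that some alternatives leave.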

Other observations

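Likeness was also taken to each group of granule genes alone, a step added after seeing the data. The azurophil mean was most like Top2a, Fcnb, Pclaf, Cdkn3 and Tfrc, with r from 0.99 to 0.98 over the 7 arrays. Top2a, Pclaf and Cdkn3 act in DNA replication or cell division, Fcnb encodes a ficolin of neutrophil precursors and Tfrc the transferrin receptor. The specific granule mean was most like Pygl, Cd24a, Clec4a2, Trem3 and Capg, with r from 0.95 to 0.92, and 11 of 5788 genes had an r above 0.9 to it, beside 105 for the azurophil and 125 for the calprotectin mean. Cd24a, a surface glycoprotein gene of maturing neutrophils and B-cell precursors, measured 11.20, 11.91 and 7.68 on endothelial 1 to 3, and the stromal arrays 1 to 4 gave 9.24, 8.61, 5.55 and 7.98. Top2a lay at 9.48, 10.13 and 8.88 on the endothelial arrays and at 8.85, 7.96, 7.06 and 6.98 on the stromal arrays.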
